A study of Rattus norvegicus with 15 samples.

Results

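The 10 genes described here are the transcription factor gene Nfe2l2, which encodes NRF2, and 9 genes of cellular redox defence: Nqo1, Gclc, Gclm, Gsr, Txnrd1, Gpx1, Gpx2, Cat and Sod1. Members were all non-control probes that carry one of these 10 gene names in the array files, and each probe was kept apart. This gave 16 probes of the 41012 on the array. The measurements come from small intestine of 15 male rats, 1 array per rat and 5 rats in each of 3 groups. Wistar rats are nondiabetic and had no operation. The other groups are Goto-Kakizaki (GK) rats, a nonobese strain bred from Wistar stock with inherited type 2 diabetes, operated on when 16 wk old. GK-S-30 rats had Roux-en-Y gastric bypass with a Roux limb (RL, the piece of intestine joined to the stomach pouch) of 30 cm, and a 5-cm piece of the RL was taken 5 cm from the anastomosis. GK-Sham-PF rats were cut and rejoined 16 cm beyond the ligament of Treitz without rearrangement of the intestine, and they were pair-fed. GK-S-30 rats are called bypass rats and GK-Sham-PF rats sham rats in what follows. In sham and Wistar rats the piece lay between 21 and 26 cm from that ligament. Tissue was collected 14 wk after the operations. Strain, diabetes, the sham operation and pair-feeding go together in the comparison of sham with Wistar rats, and strain, diabetes and the bypass in that of bypass with Wistar rats, so these cannot be told apart there.

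NRF2 is held at a low level in resting cells because KEAP1 marks it for degradation. Oxidants and electrophiles block that mark, and NRF2 then enters the nucleus and switches on genes that carry an antioxidant response element in their promoters. Its classic targets include the quinone reductase gene Nqo1 and both subunits of the enzyme that limits glutathione synthesis. NRF2 is regulated largely as a protein, and an array measures RNA. Glutathione peroxidases spend reduced glutathione to remove peroxides, and glutathione reductase restores it with NADPH. In the intestine GPX1 is found throughout the wall, while GPX2 is known as the gastrointestinal form and is made by epithelial cells.

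The Gpx2 sequences are shown because this gene gave the largest differences, and the Gpx1 sequence because the genes are of the same family. Probe positions are those of the array files in rat build rn4, without an exon annotation of that build here. In the Gpx2 probe (chr6:99376054-99376113, minus strand) the capitals mark its first ATG. The Gpx1 probe lies at chr16_random:1046293-1046352 on the plus strand. The longest run of bases that these 2 probes share is 6 bases.
Gpx2 A_44_P500056: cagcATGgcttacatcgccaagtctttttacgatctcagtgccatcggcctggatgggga
Gpx1 A_44_P123315: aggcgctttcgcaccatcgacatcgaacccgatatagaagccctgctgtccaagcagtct

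The probes for Gclc (chr8:82761662-82761721, plus strand) and Cat (within chr3:88683063-88685007, plus strand, a span of 1945 bases that includes bases the probe does not hold) are printed as examples of a called member that was higher and of one that was lower.
Gclc A_44_P228874: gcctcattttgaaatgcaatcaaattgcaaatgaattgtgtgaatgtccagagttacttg
Cat A_44_P362954: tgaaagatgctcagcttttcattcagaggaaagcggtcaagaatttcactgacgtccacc

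The core of the antioxidant response element was searched as TGACNNNGC on both strands of the RefSeq promoter windows of build GRCr8, each with 250 bases before and 50 bases after a transcript start. Windows were found for 9 of the 10 genes, and Txnrd1 has 2 windows. Of all 33469 windows, 12.1% hold the motif. Among the members it was found in the windows of 4 genes, Nfe2l2, Gclm, Txnrd1 and Gpx2, and in Nfe2l2 it lies after the start. No match was found in Nqo1, Gclc, Gpx1, Cat or Sod1, which says only that these letters are not in these windows. In Gpx2 the match is on the reverse strand and begins 13 bases before the start. The 250 bases before the start of Gpx2 (chr6:101230034-101230283, minus strand) are printed first, with the match in capitals, followed by 30-base stretches around the matches before the starts of Gclm (chr2:213031953-213031982, plus strand) and of the second Txnrd1 window (chr7:22755963-22755992, minus strand).
Gpx2 promoter: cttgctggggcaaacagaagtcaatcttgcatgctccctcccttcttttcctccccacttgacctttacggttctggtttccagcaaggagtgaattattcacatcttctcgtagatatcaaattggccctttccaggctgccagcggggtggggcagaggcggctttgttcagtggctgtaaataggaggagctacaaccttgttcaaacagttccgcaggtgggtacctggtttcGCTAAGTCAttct
Gclm promoter stretch: tgcggtttctGCTTAGTCAttgtcttccag
Txnrd1 promoter stretch: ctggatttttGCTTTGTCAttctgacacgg

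A level here is the log2 of an array's processed signal after quantile normalization of all 15 arrays, so levels are relative, are compared between groups for 1 probe at a time, and are not compared between probes. Differences were tested with limma over all 15 arrays, and a probe is called at a Benjamini-Hochberg adjusted p under 0.05 over the 27893 probes tested. The array count limits the precision. The arrays lay on 4 slides. Slide A held Wistar replicates 2 to 5, slide B Wistar replicate 1 with sham replicates 1 to 3, slide C sham replicates 4 and 5 with bypass replicates 1 and 2, and slide D bypass replicates 3 to 5. Lower brightness was seen on Wistar replicate 3 and on sham replicate 5, with a 75th percentile of the signal of 225 and 224 against 329 to 384. Epithelial markers were above background, with 12 of 12 genes tested, and 2 were called higher and 0 lower in bypass than in sham rats. In the same comparison 0 of 10 absorptive markers were called higher and 1 lower, with 2 of their 16 probes above 0, and 2 of 9 enteroendocrine markers were called higher and 0 lower. Of 5 tested goblet cell markers 1 was called higher and 0 lower, and of 4 tested red cell markers 1 higher and 0 lower. Of 10 tested crypt markers and 5 tested Paneth cell markers 0 were called, with 12 of 15 crypt probes above 0. Over all 13024 tested named genes 4.94% were called higher and 3.73% lower. Of 9 tested smooth muscle markers, 6 were called higher in bypass than in sham rats, and their summed signal was 99847 to 126397 in bypass, 31223 to 65067 in sham and 34051 to 58565 in Wistar rats. Of 9 tested immune markers, 3 were called lower in that comparison, and their summed signal was 9658 to 13139, 12274 to 19012 and 11442 to 16247 in the same order. The part of these markers in the results was not tested, and in such bulk tissue fewer cells of a type and less RNA per cell cannot be told apart.

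Of the 16 member probes, 15 passed the background filter (well above background on all 5 arrays of a group) and were tested, for 9 genes. The only Gclm probe, A_44_P1011898, was not well above background on any of the 15 arrays, with processed signals of 1.83 to 2.84, so Gclm, the regulatory subunit of glutamate-cysteine ligase, has no measured difference. Between bypass and sham rats 3 of the 15 probes were called, all higher in bypass, against 6.7% of all tested probes (3.9% higher and 2.8% lower). They were both Gpx2 probes and the Gclc probe. Between sham and Wistar rats 2 probes were called, against 7.83% of all tested probes (3.61% higher and 4.22% lower), and both were Gpx2, higher in sham. Between bypass and Wistar rats 6 probes were called, 2 higher and 4 lower, against 22.8% of all tested probes (10.9% higher and 11.8% lower). The higher ones were the Gpx2 probes, and the lower ones were Nfe2l2, Cat and both Sod1 probes. The arrays of the groups did not overlap for 2, 1 and 5 member probes in these 3 comparisons, against 7.71%, 8.82% and 18% of all tested probes. The median log2 difference of the 15 probes was 0.22, -0.17 and 0.14, beside -0.03, -0.00 and -0.03 over all tested probes. The comparisons share groups, so their values are not independent of each other.

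**Figure D1:**
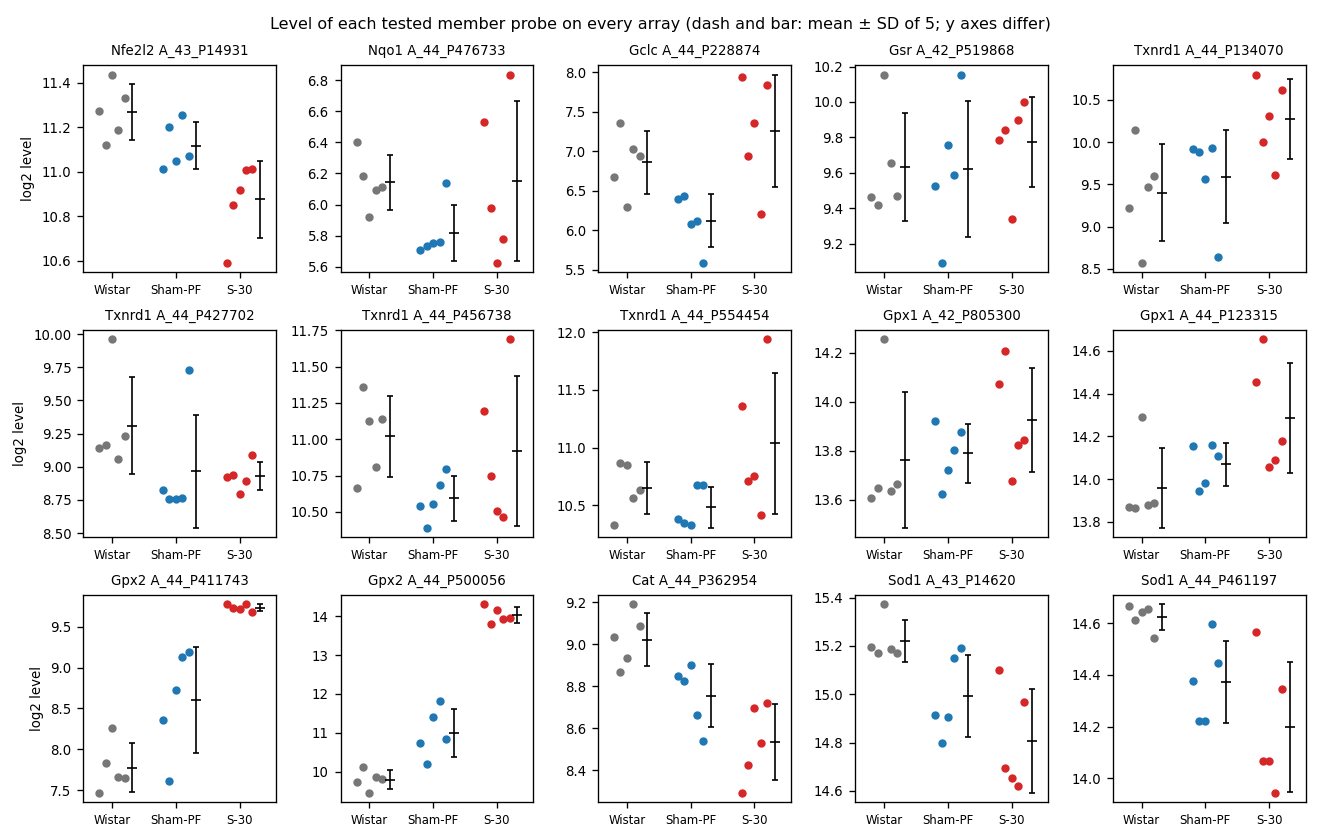
Level of each of the 15 tested member probes (y axis, log2 of the quantile-normalized signal, with a separate scale for each probe) on every array, as points, in Wistar rats, sham rats (marked Sham-PF) and bypass rats (marked S-30). Dashes and bars are the mean ± SD of 5 arrays, and Gpx2 A_44_P500056 shows 3 separate ranges that step up from Wistar to sham to bypass.

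Gpx2 was the member that differed in every comparison. On probe A_44_P500056 the 5 Wistar arrays had levels of 9.73, 10.13, 9.47, 9.86 and 9.83. The sham arrays had 10.75, 10.20, 11.40, 11.82 and 10.83, and the bypass arrays had 14.30, 13.80, 14.15, 13.93 and 13.94. The 3 ranges did not overlap, and the sham range was the widest. The lowest sham array lay only just above the highest Wistar array, whereas every bypass array lay far above every sham array. Bypass rats exceeded sham rats by 3.03 ± 0.24 (log2, SE, n = 5 each), an 8.14-fold higher signal (limma, adjusted p = 5.73e-06). The difference between sham and Wistar was 1.20 ± 0.24, a 2.29-fold higher signal (limma, adjusted p = 0.00397). Between bypass and Wistar it was 4.22 ± 0.24, an 18.7-fold higher signal (limma, adjusted p = 6.37e-09). All 3 calls remained when any 1 array was left out.

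The arrays of a group were not evenly spread over the slides, so the same probe was read within the slides that held more than 1 group. On slide C the 2 bypass arrays exceeded the 2 sham arrays by 2.73, and on slide B the 3 sham arrays exceeded the 1 Wistar array by 1.05. No slide held both bypass and Wistar arrays. With the slide in the model, bypass is thus compared with Wistar only through sham rats. Every comparison with Wistar then rests on the 1 Wistar array of slide B. In a model with the slide as a term, the adjusted p of limma was 0.00537 for bypass against sham, 0.00553 for bypass against Wistar and 0.47 for sham against Wistar. With that term 1.37%, 1.63% and 1.48% of all tested probes were called in these comparisons. Of the 11 called member differences, the 2 of this Gpx2 probe that involve bypass remained called with that term, and 9 did not, with the same direction in all 11. With the slide as a random block all 11 remained called. The correlation within slides was estimated at -0.03, so that fit is nearly the fit without a block. It does not separate slide from group.

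The other Gpx2 probe, A_44_P411743, moved the same way by less. Its levels were 7.47, 7.83, 8.26, 7.66 and 7.65 in Wistar, 8.36, 7.62, 8.73, 9.12 and 9.18 in sham and 9.77, 9.73, 9.71, 9.77 and 9.68 in bypass rats. The bypass arrays had an SD of 0.04 and lay above all others, while sham and Wistar arrays overlapped through sham replicate 2. The log2 differences were 1.13 ± 0.24 for bypass against sham (limma, adjusted p = 0.0112), 0.83 ± 0.24 for sham against Wistar (limma, adjusted p = 0.0465) and 1.96 ± 0.24 for bypass against Wistar (limma, adjusted p = 3.32e-05). The call between sham and Wistar remained only without Wistar replicate 3 or sham replicate 2, and it was lost without any 1 of the other 13 arrays (limma, adjusted p up to 0.124). In the model with the slide the difference between bypass and sham rats was 0.59 and was not called (limma, adjusted p = 0.353).

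This second probe was designed on an expressed sequence tag, and its file position (chr6:99372642-99372701) runs along the plus strand, opposite to A_44_P500056. Of 3146 array genes with several probes on RefSeq mRNAs, 3141 have all of them in 1 direction. Of 324 probes on other GenBank sequences of genes with such probes, 77 run opposite, and the same is true of 1 of the 4 Txnrd1 probes described below. What RNA strand A_44_P411743 reads was not tested, and the description of Gpx2 rests on A_44_P500056.

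**Figure D2:**
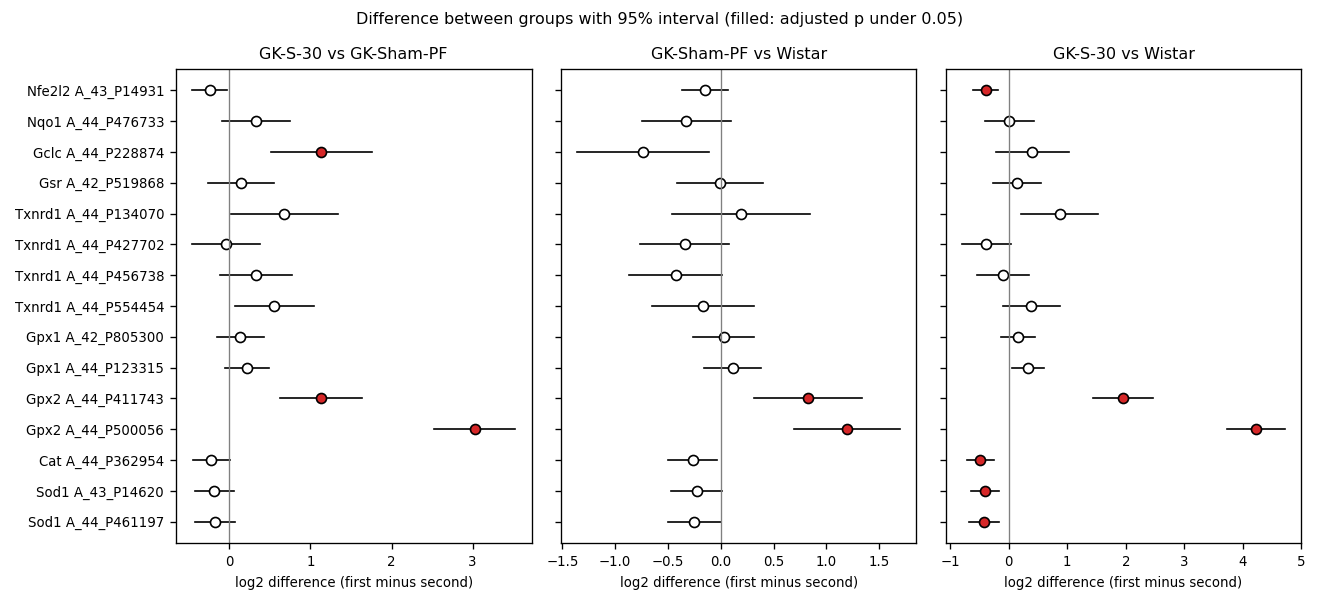
Log2 difference between groups (x axis, first group minus second) for each tested member probe, in 3 panels, 1 for each pair of groups. Points are limma estimates, lines are 95% intervals and filled points have an adjusted p under 0.05; Gpx2 A_44_P500056 lies farthest to the right in all 3 panels and, in bypass against Wistar rats, Nfe2l2, Cat and Sod1 lie to the left of 0.

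Gpx1, the widely expressed glutathione peroxidase, did not pass the limma test in any comparison. On probe A_44_P123315 the levels were 13.87, 13.86, 14.29, 13.88 and 13.89 in Wistar, 14.16, 13.94, 13.98, 14.16 and 14.11 in sham and 14.45, 14.65, 14.06, 14.09 and 14.18 in bypass rats. Wistar replicate 3, one of the dimmer arrays, stood above the other 4 Wistar arrays, which lay below all GK arrays. The log2 difference was 0.22 between bypass and sham (95% interval -0.05 to 0.48), 0.11 between sham and Wistar (-0.16 to 0.38) and 0.33 between bypass and Wistar (0.06 to 0.60, limma, adjusted p = 0.0749). Without Wistar replicate 3 the last of these was 0.41 and was called (limma, adjusted p = 0.0248). The other Gpx1 probe, A_42_P805300, had ranges of 13.61 to 14.25, 13.62 to 13.92 and 13.68 to 14.21 in Wistar, sham and bypass rats, and differences of 0.03 to 0.16 in the 3 comparisons. The Gpx1 intervals for bypass against sham rats ended at 0.42 and 0.48, and that of Gpx2 A_44_P500056 began at 2.52.

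Gclc encodes the catalytic subunit of glutamate-cysteine ligase, which makes the first bond of glutathione. Its levels were 6.68, 7.36, 6.30, 7.03 and 6.94 in Wistar, 6.40, 6.43, 6.09, 6.12 and 5.59 in sham and 7.94, 6.94, 7.36, 6.21 and 7.84 in bypass rats. In bypass rats 4 of the 5 arrays lay above all sham arrays, and replicate 4 lay among them. Bypass rats exceeded sham rats by 1.14 ± 0.29 (log2, SE, n = 5 each), a 2.20-fold higher signal (limma, adjusted p = 0.0306). Sham rats lay 0.74 below Wistar (limma, adjusted p = 0.168), and bypass rats differed from Wistar by 0.40 (95% interval -0.23 to 1.02), so neither passed. The call between bypass and sham rats was lost without any 1 of bypass replicates 1, 3 or 5 or sham replicates 3, 4 or 5, with limma adjusted p up to 0.0809, and the difference stayed between 0.96 and 1.40. On slide C it was 1.59, with an adjusted p of 0.133 in limma with the slide as a term, and after normexp background correction it was 0.68.

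Nfe2l2 RNA was lower in bypass than in Wistar rats. Levels were 11.27, 11.12, 11.44, 11.19 and 11.33 in Wistar, 11.01, 11.20, 11.05, 11.26 and 11.07 in sham and 10.59, 10.85, 10.92, 11.01 and 11.01 in bypass rats. Every bypass array lay below every Wistar array, and sham rats lay between and overlapped both. The difference between bypass and Wistar was -0.39 ± 0.10 (log2, SE, n = 5 each; limma, adjusted p = 0.0112). Between bypass and sham it was -0.24 (95% interval -0.46 to -0.03; limma, adjusted p = 0.182), and between sham and Wistar -0.15 (-0.37 to 0.06). In the slide model the difference from Wistar was -0.63 and was not called (limma, adjusted p = 0.25). Keap1, whose product binds NRF2 and targets it for degradation, had means of 8.57, 8.78 and 8.88 in Wistar, sham and bypass rats and was not called in any comparison (limma, adjusted p = 0.254 for bypass against Wistar).

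Nqo1, the quinone reductase most often read as a sign of NRF2 activity, was not called. Its levels were 6.40, 6.19, 5.92, 6.10 and 6.11 in Wistar, 5.71, 5.73, 5.75, 5.76 and 6.14 in sham and 6.53, 5.98, 5.62, 5.78 and 6.84 in bypass rats. In sham rats 4 of the 5 arrays lay below all Wistar arrays, and in bypass rats replicates 1 and 5 lay above them while the other 3 did not. The difference between bypass and sham rats was 0.33 (95% interval -0.09 to 0.75; limma, adjusted p = 0.371), between sham and Wistar -0.33 (-0.74 to 0.09; limma, adjusted p = 0.42) and between bypass and Wistar 0.01 (-0.41 to 0.43).

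Txnrd1, the cytosolic thioredoxin reductase, is read by 4 probes, none of which was called in any comparison, and they did not move together. Probe A_44_P134070 had levels of 9.22, 10.15, 8.57, 9.47 and 9.60 in Wistar, 9.92, 9.88, 9.57, 9.93 and 8.64 in sham and 10.80, 10.01, 10.31, 9.62 and 10.62 in bypass rats. Its lowest values in the Wistar and sham groups were those of the 2 dimmer arrays. Bypass rats exceeded Wistar by 0.87 ± 0.31 (log2, SE, n = 5 each; limma, adjusted p = 0.0541) and sham by 0.68 ± 0.31 (limma, adjusted p = 0.222). The first of these was called without Wistar replicate 2 (1.06; limma, adjusted p = 0.0247), bypass replicate 4 (1.03; limma, adjusted p = 0.0298) or sham replicate 5 (0.87; limma, adjusted p = 0.0265).

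The Txnrd1 probe A_44_P554454 had 11.36, 10.71, 10.76, 10.42 and 11.94 in bypass rats and a difference of 0.55 from sham (95% interval 0.07 to 1.04; limma, adjusted p = 0.173). Probe A_44_P456738 had 11.20, 10.75, 10.50, 10.47 and 11.69 in bypass rats and a difference of 0.33 (-0.11 to 0.77; limma, adjusted p = 0.413). On both probes bypass replicates 1 and 5 were the highest of their group, as they were for Nqo1, and on Gclc and A_44_P134070 the same 2 replicates were highest. These arrays lay on slides C and D. The fourth probe, A_44_P427702, was designed on an expressed sequence tag and its position runs opposite to the other 3. It lay at 8.92, 8.94, 8.80, 8.89 and 9.09 in bypass rats, differed from sham by -0.04 (-0.46 to 0.38) and from Wistar by -0.38 (limma, adjusted p = 0.183). It was highest on the 2 dimmer arrays, at 9.96 in Wistar and 9.73 in sham rats, where A_44_P134070 was lowest. Without both dimmer arrays it was called lower in sham (-0.37; limma, adjusted p = 0.00926) and in bypass (-0.22; limma, adjusted p = 0.0451) than in Wistar rats.

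**Figure D3:**
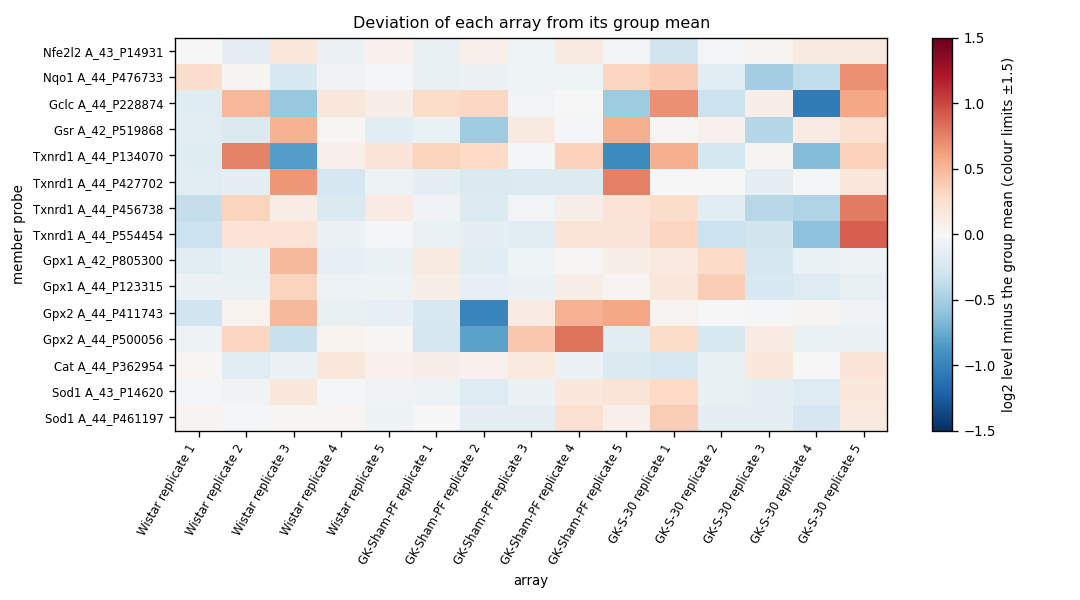
Deviation of each array (x axis) from the mean of its own group for each tested member probe (y axis), in log2 units by colour. Wistar replicate 3 and sham replicate 5, the dimmer arrays, hold opposite colours for the Txnrd1 probes A_44_P134070 and A_44_P427702, and bypass replicates 1 and 5 are red for Nqo1, Gclc and 3 Txnrd1 probes.

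Gsr, glutathione reductase, showed no called difference. Its ranges were 9.42 to 10.15 in Wistar, 9.09 to 10.15 in sham and 9.34 to 10.00 in bypass rats. The difference between bypass and sham rats was 0.15 (95% interval -0.26 to 0.56) and between sham and Wistar -0.01 (-0.42 to 0.40). Between bypass and Wistar it was 0.14 (-0.27 to 0.55).

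Cat, catalase, and Sod1, the cytosolic copper-zinc superoxide dismutase, were lower in bypass than in Wistar rats. Cat had levels of 9.03, 8.87, 8.93, 9.19 and 9.09 in Wistar, 8.85, 8.82, 8.90, 8.66 and 8.54 in sham and 8.29, 8.43, 8.69, 8.53 and 8.72 in bypass rats. All bypass arrays lay below all Wistar arrays, and sham overlapped both. The difference between bypass and Wistar was -0.49 ± 0.11 (log2, SE, n = 5 each; limma, adjusted p = 0.00448). It was -0.27 between sham and Wistar (limma, adjusted p = 0.179) and -0.22 between bypass and sham (limma, adjusted p = 0.267), and neither passed.

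On the Sod1 probe A_43_P14620 the levels were 15.19, 15.17, 15.37, 15.19 and 15.17 in Wistar, 14.91, 14.80, 14.91, 15.15 and 15.19 in sham and 15.10, 14.69, 14.65, 14.62 and 14.97 in bypass rats. Bypass rats lay wholly below Wistar on this probe. On A_44_P461197 the Wistar range was 14.54 to 14.67 and the bypass range 13.95 to 14.56, which overlap through bypass replicate 1. The probes gave the same difference between bypass and Wistar, -0.41 ± 0.11 (limma, adjusted p = 0.0166) and -0.42 ± 0.12 (limma, adjusted p = 0.0171). Between sham and Wistar they gave -0.23 and -0.25, and between bypass and sham -0.19 and -0.17, none of them called. After scaling to the 75th percentile in place of quantile normalization neither Sod1 difference from Wistar was called (-0.34 and -0.33; limma, adjusted p = 0.111 and 0.0772). The slide model gave a difference from Wistar of -0.42 for Cat and -0.60 for both Sod1 probes, and none was called (limma, adjusted p = 0.439, 0.322 and 0.352).

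**Figure D4:**
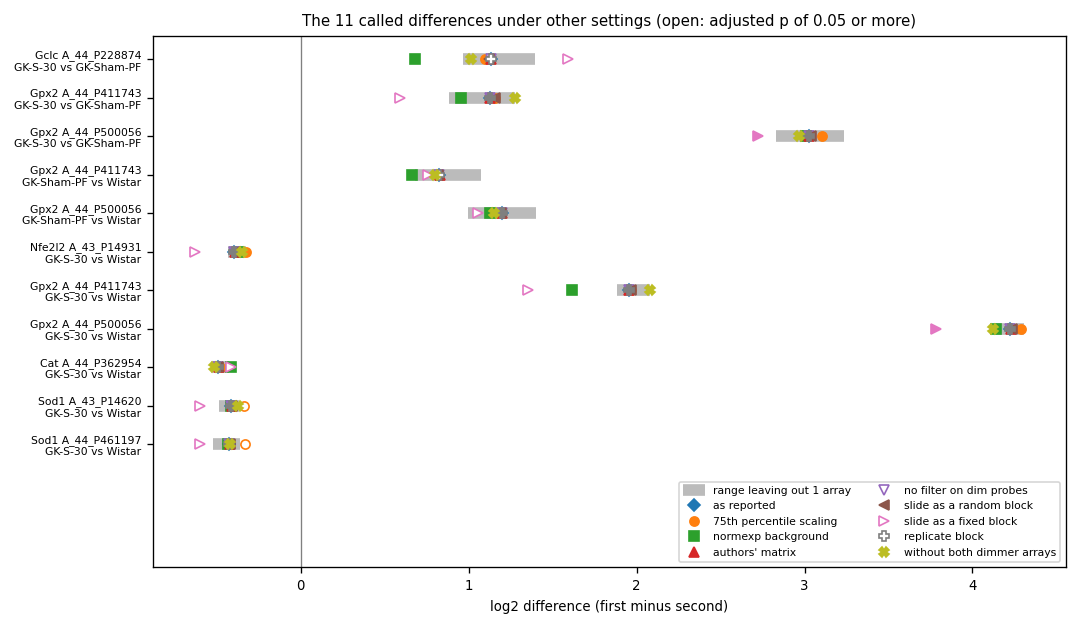
The 11 called member differences (y axis) as log2 difference (x axis, first group minus second) as reported and under 8 other settings, each a symbol that is open where the adjusted p was 0.05 or more, with a grey bar for the range when 1 array was left out. With the slide as a fixed term, 2 of the 11, both Gpx2 A_44_P500056, stay filled, and no difference changes sign.

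The genes whose levels most resembled those of a member over all 15 arrays are given as a description; the arrays of a group share their group, so such an r holds the differences between groups. For Gpx2 A_44_P500056 the nearest was Duox2 (Pearson's r = 0.984), whose product, dual oxidase 2, makes hydrogen peroxide at the surface of epithelia. Duox2 had mean levels of 5.39 ± 0.32, 8.23 ± 1.30 and 14.50 ± 0.74 (SD, n = 5 each) in Wistar, sham and bypass rats. Its log2 difference was 6.27 ± 0.50 (SE) between bypass and sham and 2.84 ± 0.50 between sham and Wistar. Next came Nppa, a natriuretic peptide gene (r = 0.978), and Pkia, an inhibitor of protein kinase A (r = 0.967). For Gclc they included Slc24a5 (r = 0.939) and Prmt2 (r = 0.875), and for Cat they were Hrk (r = 0.932), Sharpin (r = 0.919) and RGD1564338 (r = 0.918). Hrk was not well above background on any bypass array.

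The members' neighbours in the pathway were read as lists of genes, in which a gene counts as called where any of its probes was. By that rule 4.94% of all 13024 tested named genes were called higher and 3.73% lower between bypass and sham, 4.24% and 4.84% between sham and Wistar, and 13.1% and 14.1% between bypass and Wistar rats. The list counts are descriptions set beside these shares and were not tested against them. Of the 9 tested genes that control NRF2 or compete with it, 0 were called by limma in any of the 3 comparisons. An unadjusted limma p under 0.05 was found for 2, 1 and 3 of their 15 probes, against 20.6%, 18.9% and 34.8% of all tested probes. Past the methods' Tukey test were 0, 0 and 1 of these probes, against 13.9%, 13.5% and 26.5% of all tested probes. The other textbook NRF2 targets divided. Of 24 tested genes 1 was called higher and 1 lower between bypass and sham, 0 higher and 7 lower between sham and Wistar, and 4 higher and 9 lower between bypass and Wistar rats. The median log2 differences of their probes were 0.12, -0.17 and -0.13. The first counts lie near the shares of all genes (4.94% and 3.73%), and the lower calls against Wistar lie above them (4.84% and 14.1%). The largest was Akr1b8, an aldo-keto reductase that clears reactive aldehydes. It lay at 13.98 to 15.10 in Wistar, 9.14 to 9.99 in sham and 8.70 to 9.85 in bypass rats, a difference of -5.10 ± 0.23 between sham and Wistar (limma, adjusted p = 6.47e-10). Both GK groups thus lay far below Wistar, where Gpx2 lay above it. Hmox1, heme oxygenase 1, had 8.74 to 10.65, 9.35 to 10.83 and 10.07 to 11.30 in the same order. It differed by 0.81 ± 0.36 between bypass and sham (limma, adjusted p = 0.215) and by 1.09 ± 0.36 between bypass and Wistar (limma, adjusted p = 0.042), a call that was lost in 8 of the 15 fits without 1 array and that turned to -0.27 with the slide as a term. Gsta1 and Gsta3, glutathione transferases, belong to a family of near-identical genes, so which of them a probe read is uncertain. Calls within this family may thus not stand for separate genes in the counts of the list. The names here come from RefSeq by accession or symbol, while the array files name the Gsta1 probe, A_42_P624195, as Gsta3 and the Gsta3 probe, A_44_P491831, as Gsta5. Gsta1 was lower by 1.15 on the log2 scale in bypass than in Wistar rats (limma, adjusted p = 0.00905). Its ranges of 9.68 to 11.61 in Wistar and 9.20 to 10.08 in bypass rats overlapped. Gsta3 differed by -1.68 between sham and Wistar (limma, adjusted p = 0.0435), and this call was lost in 8 of the 15 fits without 1 array.

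The NADPH that reduces glutathione and thioredoxin comes from a small set of enzymes. Of 9 tested genes 3 were called higher and 0 lower between bypass and sham, 0 higher and 3 lower between sham and Wistar, and 3 higher and 1 lower between bypass and Wistar rats, beside 4.94% and 3.73%, 4.24% and 4.84%, and 13.1% and 14.1% of all genes. The median log2 differences of their probes were 0.15, -0.26 and 0.02. Me1, the cytosolic malic enzyme, rose by 0.70 ± 0.15 and 0.76 ± 0.17 on its 2 probes between bypass and sham (limma, adjusted p = 0.0128 and 0.0165). It was lower by -0.55 and -0.69 in sham than in Wistar rats (limma, adjusted p = 0.0343 and 0.0204), calls that were lost in 6 and 4 of the 15 fits without 1 array. Me1 and Gclc had the same order of group means, with sham lowest. Tkt, transketolase of the pentose phosphate pathway, lay at 16.09 to 16.45 in Wistar, 16.34 to 16.55 in sham and 16.70 to 17.46 in bypass rats, and rose by 0.65 ± 0.13 between bypass and sham (limma, adjusted p = 0.00635). Idh2, the mitochondrial isocitrate dehydrogenase, differed by -0.40 between sham and Wistar on 1 of its 2 probes (limma, adjusted p = 0.0462), a call lost in 11 of the 15 fits without 1 array, and by -0.29 on the other (limma, adjusted p = 0.283). Neither Idh2 probe was called between bypass and Wistar rats (limma, adjusted p = 0.0714 and 0.0998). On 1 of its 3 probes Nnt, the transhydrogenase, differed by -0.48 between sham and Wistar rats (limma, adjusted p = 0.00229). Between bypass and Wistar rats that probe differed by -0.54 (limma, adjusted p = 0.000431). The other 2 Nnt probes were not called in any comparison.

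In glutathione turnover, 29 tested genes gave 1 higher and 0 lower between bypass and sham, 1 higher and 2 lower between sham and Wistar, and 4 higher and 2 lower between bypass and Wistar rats. These few calls are near or below the shares of all genes (4.94% and 3.73%, 4.24% and 4.84%, 13.1% and 14.1%), so the genes named next are single genes and not a change of the list. Ggt1, which breaks down extracellular glutathione, had ranges of 11.20 to 12.15, 10.78 to 11.40 and 11.15 to 12.66 in Wistar, sham and bypass rats and rose by 1.10 ± 0.26 between bypass and sham (limma, adjusted p = 0.018). Glrx5, a mitochondrial glutaredoxin, was lower by -0.76 ± 0.13 in sham and by -0.84 ± 0.13 in bypass than in Wistar rats (limma, adjusted p = 0.000962 and 0.000207). Slc1a1, a glutamate and cysteine carrier, was higher by 0.77 ± 0.18 in bypass than in Wistar rats (limma, adjusted p = 0.00581). Of 3 Lap3 probes, 1 was called between bypass and Wistar (0.62; limma, adjusted p = 0.0253) and the brightest was not, and the call was lost in 4 of the 15 fits without 1 array.

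Among the other genes that handle peroxide and superoxide, 26 were tested. Between bypass and sham 3 were called higher and 4 lower, between sham and Wistar 3 higher and 4 lower, and between bypass and Wistar rats 5 higher and 6 lower, beside 4.94% and 3.73%, 4.24% and 4.84%, and 13.1% and 14.1% of all genes. The median log2 differences of their probes were -0.06, 0.02 and -0.03. Ccs, the chaperone that loads copper into SOD1, fell in steps and its groups did not overlap, with ranges of 12.72 to 12.89 in Wistar, 12.00 to 12.21 in sham and 11.49 to 11.93 in bypass rats. Its differences were -0.73 ± 0.10 between sham and Wistar (limma, adjusted p = 0.000101), -1.12 ± 0.10 between bypass and Wistar (limma, adjusted p = 8.23e-07) and -0.39 ± 0.10 between bypass and sham (limma, adjusted p = 0.0248), and the last was lost in 4 of the 15 fits without 1 array. Both Sod1 probes had the same order of group means as Ccs. Txn1, thioredoxin, the substrate of thioredoxin reductase, rose by 0.74 ± 0.13 between bypass and sham on its brighter probe (limma, adjusted p = 0.00413), and its other probe, with levels of 7.42 to 8.84, was not called. Prdx1, a peroxiredoxin, was higher in both GK groups than in Wistar rats, by 0.67 ± 0.12 in sham and 0.70 ± 0.12 in bypass (limma, adjusted p = 0.00245 and 0.000882). Msrb2, a methionine sulfoxide reductase, was lower by -0.73 ± 0.13 in bypass than in Wistar rats (limma, adjusted p = 0.000861).

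GPX1, GPX2 and TXNRD1 contain selenocysteine, so genes of selenium supply and selenoprotein synthesis were read as well, in 1 list with genes of other selenoproteins. Of 17 tested genes 0 were called higher and 1 lower between bypass and sham, 1 higher and 0 lower between sham and Wistar, and 3 higher and 3 lower between bypass and Wistar rats. These counts are near the shares of all genes (4.94% and 3.73%, 4.24% and 4.84%, 13.1% and 14.1%), so no change of the list is read from them. The lower gene was Selenop, which encodes a plasma selenium carrier. It lay at 7.82 to 8.36 in Wistar, 8.35 to 8.92 in sham and 6.67 to 8.14 in bypass rats, a difference of -1.35 ± 0.23 between bypass and sham (limma, adjusted p = 0.00313). Selenow, a small selenoprotein, was higher by 0.74 ± 0.13 in sham and by 0.71 ± 0.13 in bypass than in Wistar rats (limma, adjusted p = 0.00134 and 0.000906). Against Wistar, bypass rats also differed in Selenon (0.47; limma, adjusted p = 0.0272, lost in 5 of the 15 fits without 1 array) and on 1 of 2 probes of Eefsec, the selenocysteine elongation factor (-0.62; limma, adjusted p = 0.0187). Under the slide model, the calls between bypass and sham that remained among the genes named from these lists were Me1 on 1 probe, Tkt and Txn1. In each comparison with Wistar that model called 0 probes higher and 2 lower over all the related lists, so most calls against Wistar given above were lost.

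**Figure D5:**
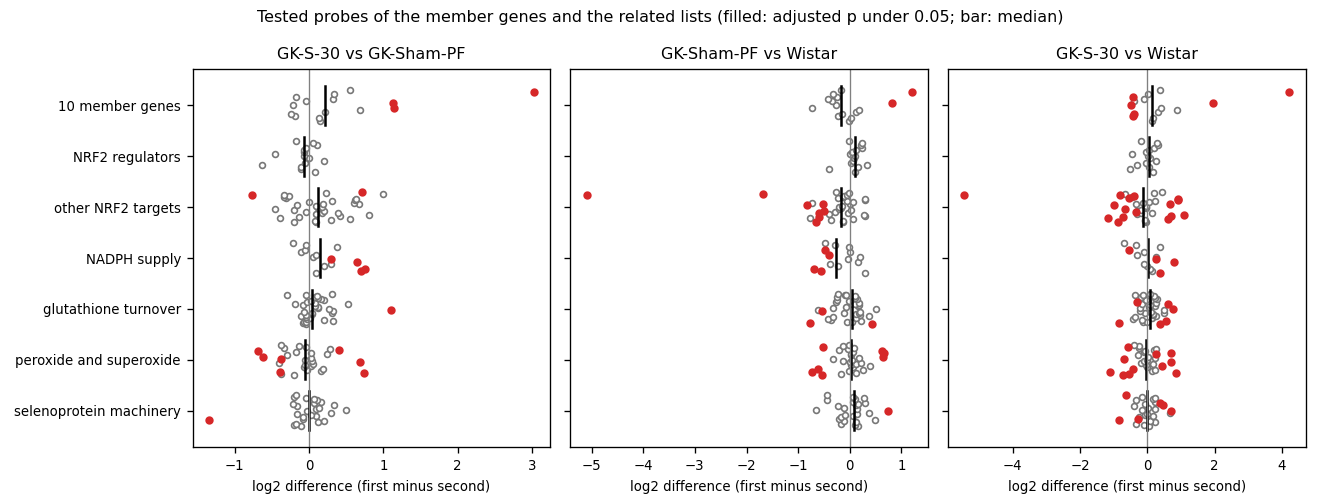
Log2 difference (x axis, first group minus second) of every tested probe of the 10 member genes and of the 6 related lists (y axis), in 3 panels, 1 for each pair of groups. Filled points have an adjusted p under 0.05 and bars are the list medians; the rightmost point of each panel is a Gpx2 probe, and the leftmost in both comparisons with Wistar is Akr1b8.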

How the data were processed

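One array per rat was read in 5 rats of each group, and groups were taken from the sample labels. The authors deposited scanner intensity values from Agilent Feature Extraction 10.7 (per the submitters' processing notes), in which background had been subtracted but arrays were not normalized to each other. The series table that the authors deposited holds log2 values, quantile-normalized between arrays per the methods, and served as an alternative. Here control spots and outlier spots were dropped, spots of a probe averaged, and log2 signals quantile-normalized (limma 3.58.1, R 4.3.3, figures with matplotlib 3.10.9). This presumes an equal spread of signals on all arrays.

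Tested probes were those well above background on all 5 arrays of any 1 group, which were 27893 of 41012 probes, named or not, and 66.7% to 74.8% of probes were above background on single arrays. All 3 pairs were compared in 1 limma model without covariates, with Benjamini-Hochberg adjustment at 0.05. With 1 array per rat, p-values measure the spread between rats and between arrays together, and this model has no term for the slide. In simulated data for bypass against sham rats over 27848 probes, 67, 67 and 66 probes were changed by 0.5, 1 and 2. Of these changes 20.9%, 77.6% and 97% were called. The share of changed probes was smaller than the share called in the data, and no slide effects were simulated, so these rates need not hold for the data. Gene names were updated through RefSeq (GRCr8), 17541 probes by accession, 3098 by symbol and 539 by synonym. Probe positions are the files' (rn4).

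All member probes are named. Of each related list at most 4 genes are named, those with the largest called difference, plus Keap1 and Hmox1, and the 3 nearest genes are given for 3 members, except 1 gene that is not reported here. The members and lists were chosen with earlier results of these data known. The alternatives tried were other scaling, background, filters, probe choice, blocks and left-out arrays, and those for the related lists and for leaving out both dimmer arrays were added after seeing the data.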

Additional observations from a re-analysis of the deposited data

Results flagged for a closer look

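In 45 groups of 5 arrays (15 probes in 3 groups), 7 held an array whose gap to the nearest other, divided by the range of the group, passed Dixon's 95% critical value of 0.71. Chance alone gives about 1 in 20 such groups. All 7 are values of the 2 dimmer arrays. On sham replicate 5, Nqo1 lay high at 6.136, Txnrd1 A_44_P134070 low at 8.641 and Txnrd1 A_44_P427702 high at 9.727. On Wistar replicate 3, Txnrd1 A_44_P427702 lay high at 9.959, Gpx1 A_42_P805300 at 14.25, Gpx1 A_44_P123315 at 14.29 and Sod1 A_43_P14620 at 15.37.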

How the results depend on the processing

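The 11 called member differences kept their direction in all alternatives run. All 11 stayed called after normexp background correction, with the authors' matrix, with only probes above background on all arrays, with outlier spots kept, with named probes only, with the slide as a random block, with the methods' Tukey p and without both dimmer arrays. Scaling to the 75th percentile left 9, no filter on dim probes 9, the replicate block 9, and the Tukey p after Benjamini-Hochberg adjustment 8. With the slide as a fixed block 2 were left, while the random block, at a correlation of -0.03 within slides, differed little from no block. Called member probes for bypass against sham, 3 as reported, were 1 with the slide as a fixed block and 1 with the adjusted Tukey p. For sham against Wistar, 2 as reported, they were 0 with the slide as a fixed block and 1 with no filter on dim probes, with 1 probe a gene, with the replicate block and with the adjusted Tukey p. For bypass against Wistar, 6 as reported, they were 1 with the slide as a fixed block. Without 1 array these counts were 2 to 3, 1 to 2 and 6 to 7. Replicate numbers do not pair these rats: deviations of same-numbered arrays correlated between -0.28 and 0.19, and with the replicate block 1211, 1630 and 5177 of all tested probes were called in the 3 comparisons against 1869, 2184 and 6352 without it.

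The 6 related lists, in the order above, held 15, 35, 14, 35, 29 and 26 tested probes. Over these lists, 9 probes were called higher and 6 lower between bypass and sham, 5 and 18 between sham and Wistar, and 21 and 22 between bypass and Wistar. Of all tested probes 3.9% and 2.8%, 3.61% and 4.22%, and 10.9% and 11.8% were called higher and lower. With the slide as a fixed block the list counts were 3 and 0, 0 and 2, and 0 and 2. Of all tested probes that block left 1.37%, 1.48% and 1.63% called in either direction. With the Tukey p the list counts were 17 and 12 in the first comparison and 14 higher in the second, against 13.9% and 13.5% of all tested probes. After adjustment they were 3 higher in the first and 10 lower in the second, against 2.74% and 4.96%. Without 1 array they ranged from 6 to 12 and 3 to 6, 5 to 7 and 11 to 19, and 16 to 23 and 19 to 27. Hmox1 between bypass and Wistar turned to -0.27 with the slide as a fixed block.

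Of all tested probes the slide as a fixed block left 382, 414 and 454 called, and the Tukey p gave 3864, 3775 and 7398, or 763, 1384 and 4168 after adjustment. That block rests on slides B and C, the 2 slides that hold 2 groups, and so on fewer arrays, with 1 Wistar array among them. Leaving out 1 array gave 1197 to 2371, 1690 to 2416 and 5274 to 7032. Called differences under 0.5 on the log2 scale are near the limit of 5 arrays a group, and Gclm was not well above background.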
